A study of Mus musculus and Rattus norvegicus with 51 samples.

Results

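Liver gene expression was compared between mice of the Hmgb1 deletion genotype Hmgb1ΔHepΔMye that had received either of 2 forms of HMGB1, a wild-type form (WT HMGB1) or a form written Δ[O] HMGB1, after 4 weeks of the liver toxin CCl4. The comparison used 8 of the 51 libraries of the series, 4 for each construct, chosen by their genotype and treatment labels, and 14129 of the 24982 genes in the count table had enough reads to be tested. The series concerns redox forms of HMGB1 in the progression and resolution of liver fibrosis, and its other libraries come from cultured stellate cells and from other livers. RNA was taken from whole liver, and all mice were labelled male.

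All mice of the comparison had the genotype Hmgb1ΔHepΔMye, and those of the control group received WT HMGB1 with CCl4 while those of the other group received Δ[O] HMGB1 with CCl4. The same pair of constructs was also given with MO in place of CCl4 for 4 weeks, with 3 libraries each. Wild-type mice whose titles name no construct formed the remaining groups, with 3 MO and 4 CCl4 libraries. Whether they received AAV8 is not said. How the HMGB1 was delivered is not spelled out, and it is called a construct here because the table carries AAV8 in its name. The labels explain neither Δ[O], Hep, Mye nor MO, and give neither the promoters behind the deletion, the cells that took up the constructs, the strain nor the age of the mice. Below, the groups under CCl4 are called WT-construct and Δ[O]-construct livers. Nothing in the labels says that numbered samples are separate animals, so p-values cover only the scatter among these libraries, part of which may be technical.

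HMGB1 is an abundant chromatin protein that leaves cells under stress or at death, and outside the cell it acts as a danger signal through receptors such as Ager, Tlr2 and Tlr4. The oxidation state of its cysteines is known to change which of these receptors it engages. In the injured liver, resident macrophages (Kupffer cells) and macrophages that enter from the blood take up debris and signal to stellate cells, the main makers of scar collagen.

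Across all 21 livers the libraries held 22.6 to 39.32 M gene counts, with 28.63 to 33.82 M in the WT-construct and 26.95 to 35.42 M in the Δ[O]-construct livers under CCl4. Levels are given as CPM, which scales counts for library size, and fold changes as log2 values with their standard error (SE). The hepatocyte marker list summed to 102000 to 113300 CPM in WT-construct and 113700 to 145300 CPM in Δ[O]-construct livers under CCl4. Library 5 of the Δ[O]-construct livers stood apart: its place on the first axis of a distance plot was 0.596, against 1.656 at most in its group, and a model that weights samples gave it a weight of 0.270. A pair of MO libraries went against their label. Xist, the RNA that coats the inactive X chromosome of females, reached 845 CPM in MO library 3 of the WT construct and 664 CPM in MO library 3 of the Δ[O] construct, against 0 to 2.25 CPM in the other 19 libraries. The Y-linked gene Ddx3y stood at 0.154 CPM in that WT-construct library and at 22.5 CPM in that Δ[O]-construct library, against 52.6 to 98.9 CPM elsewhere. All 8 CCl4 livers of the main comparison had Xist near 0 and Y-linked genes in the common range, apart from Eif2s3y at 16.9 CPM in Δ[O]-construct library 5. Results that rest on these MO libraries are given with and without them.

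Under CCl4 the Δ[O]-construct livers showed lower RNA of some macrophage and matrix genes, with 7 of 15 general macrophage genes and 4 of 11 listed non-fibrillar collagens lower, and higher RNA of 3 of 26 genes of fatty acid oxidation. In edgeR's quasi-likelihood test, 326 of 14129 genes passed a Benjamini-Hochberg adjusted p of 0.05 (2.31%). Of these, 310 were lower (2.19%) and 16 higher (0.113%) with Δ[O] HMGB1. The count and its split depended on the tool: a fit of only the 8 libraries compared gave 102 lower and 6 higher genes, DESeq2 474 and 105, and limma-voom with sample weights 849 and 388. The median log2 fold change was -0.94 among the lower genes, 0.71 among the higher genes and 0.000826 over all genes tested. A change of at least 2 fold was reached by 120 of the lower and 6 of the higher genes. In 294 of the lower and 14 of the higher genes, all 4 Δ[O]-construct libraries lay outside the range of the 4 WT-construct libraries, a separation that 7.07% and 3.87% of all tested genes showed in these directions. In whole tissue, fewer cells of a type and less RNA per cell cannot be told apart.

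The number of genes called depended on single libraries. Without WT-construct library 3, 4 or 5 it was 151, 109 or 66, and without Δ[O]-construct library 1, 3 or 5 it was 73, 61 or 166. Leaving out Δ[O]-construct library 2 raised it to 492, and leaving out WT-construct library 1 gave 315. Of 55 called genes named by a rule on size, list membership or both, 14 passed in each of these 8 fits. The number kept was 44, 27, 19 and 16 without WT-construct libraries 1, 3, 4 and 5, and 18, 52, 15 and 24 without Δ[O]-construct libraries 1, 2, 3 and 5.

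Hmgb1 RNA itself did not differ between the constructs beyond its spread under CCl4. It stood at 50.5, 44.9, 65.4 and 74.1 CPM in the WT-construct libraries and at 63.0, 81.2, 61.7 and 92.3 CPM in the Δ[O]-construct libraries, and the groups overlapped (log2 fold change 0.34, SE 0.194, edgeR adjusted p = 0.428). Reads of a construct and of the animal's own gene cannot be told apart in these counts, so the deletion could not be checked at the RNA level. Hmgb2, a paralog that dividing cells express, was at 19 to 34.4 against 9.54 to 28.5 CPM (log2 -0.46, edgeR adjusted p = 0.423). Hmgb3 was at 11.1 to 18.2 against 12.8 to 15.3 CPM (log2 -0.04, edgeR adjusted p = 0.936).

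Many macrophage genes fell with Δ[O] HMGB1. Marco, a scavenger receptor of Kupffer cells (chr1:120474538-120505024 on GRCm38.p6), stood at 287, 267, 375 and 396 CPM in WT-construct and at 33.2, 119, 62.3 and 43.4 CPM in Δ[O]-construct livers. The groups did not overlap, and even the highest Δ[O]-construct library was far below the lowest WT-construct library (log2 -2.36, SE 0.420, edgeR adjusted p = 0.00762). Its call held in each fit that left out 1 of the 8 libraries. Fcer1g, the signalling chain shared by several Fc receptors, stood at 28.9, 32.2, 44.8 and 41.6 against 16.2, 21.4, 17.6 and 15.6 CPM (log2 -1.06, SE 0.172, edgeR adjusted p = 0.00387). Ctss, the antigen-processing protease cathepsin S, stood at 185, 199, 220 and 267 against 98.4, 148, 112 and 95.2 CPM (log2 -0.94, SE 0.169, edgeR adjusted p = 0.00696). In both genes the groups were apart, and Δ[O]-construct library 2 was the highest of its group.

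Of the 15 genes of the general macrophage list, 7 fell, none rose, and all 15 had a negative log2 fold change (median -0.89). In 10 of them the groups did not overlap, a separation that 7.07% of all tested genes showed in this direction. Without Δ[O]-construct library 5, 6 fell. The list's summed level was 1541, 1702, 1788 and 1852 CPM in the WT-construct livers and 855, 1345, 933 and 803 CPM in the Δ[O]-construct livers. Among those that fell were all 3 chains of C1q, the starter of classical complement: C1qa (log2 -0.95, edgeR adjusted p = 0.0182), C1qb (-0.94, 0.0121) and C1qc (-0.84, 0.0113). C1qa stood at 156, 168, 274 and 284 against 84.3, 151, 104 and 115 CPM, so the lowest WT-construct library was only just above the highest Δ[O]-construct library. Cd68, a lysosomal protein of phagocytes, fell by 0.91 on the log2 scale (SE 0.195, edgeR adjusted p = 0.0171), and Laptm5, a lysosomal membrane protein of blood cells, by 0.89 (SE 0.174, 0.00967). Adgre1, which encodes the macrophage antigen F4/80, stood at 69.1, 69.7, 46.3 and 51.0 against 36.9, 59.5, 37.8 and 20.8 CPM and did not pass (log2 -0.60, SE 0.345, edgeR adjusted p = 0.437).

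Of 13 Kupffer cell genes tested, 5 fell, none rose and 12 were negative (median log2 fold change -0.56). In 6 the groups did not overlap, against 7.07% of all tested genes in this direction. Without Δ[O]-construct library 5, 3 fell. The sum of the list was 1497 to 1623 CPM in WT-construct and 799 to 1188 CPM in Δ[O]-construct livers. Much of that gap lay in Marco, at 267 to 396 against 33.2 to 119 CPM, and in Cd5l. Cd5l, a secreted protein of tissue macrophages, stood at 422, 514, 397 and 380 against 176, 313, 202 and 136 CPM (log2 -1.05, SE 0.213, edgeR adjusted p = 0.0117). Timd4, a receptor for dying cells on long-lived resident macrophages, stood at 18.6, 16.4, 15.7 and 17.9 against 6.43, 12.7, 7.08 and 5.87 CPM (log2 -1.09, SE 0.236, edgeR adjusted p = 0.0174). The haemoglobin scavenger receptor Cd163 fell by 1.02 (SE 0.194, edgeR adjusted p = 0.00898). Clec4f, a lectin found on Kupffer cells, stood at 148, 128, 108 and 108 against 102, 148, 112 and 78.3 CPM. Its groups overlapped almost wholly (log2 -0.16, SE 0.178, edgeR adjusted p = 0.742). The fifth called member, Cdh5, is also a marker of endothelium and lost its call with the replicate number as a block (log2 -0.53 and edgeR adjusted p = 0.05 without the block, 0.0655 with it).

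Genes of infiltrating and scar-associated macrophages had a negative log2 fold change in 17 of 18 cases (median -0.76), but only Itgam passed. Itgam, the integrin chain CD11b, stood at 16.8, 17.4, 21.4 and 29.2 against 6.13, 9.67, 6.79 and 3.35 CPM (log2 -1.70, SE 0.408, edgeR adjusted p = 0.0345). Its groups were apart, and the call held in 2 of the 8 fits that left out a library. Ccr2, the receptor that brings monocytes from the blood, had a log2 fold change of -0.93 with non-overlapping groups and an edgeR adjusted p of 0.166. Neutrophil genes had 1 fall among 13, Csf3r (log2 -0.98, edgeR adjusted p = 0.021), and a positive median of 0.34. Their summed level was 299 to 717 against 169 to 224 CPM. Most of that sum was Lcn2, at 262 to 682 against 139 to 174 CPM, which did not pass (edgeR adjusted p = 0.191). The T and NK cell list (18 genes, median -0.43) and the dendritic cell and MHC class II list (14 genes, median -0.41) had no call.

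**Figure D1:**
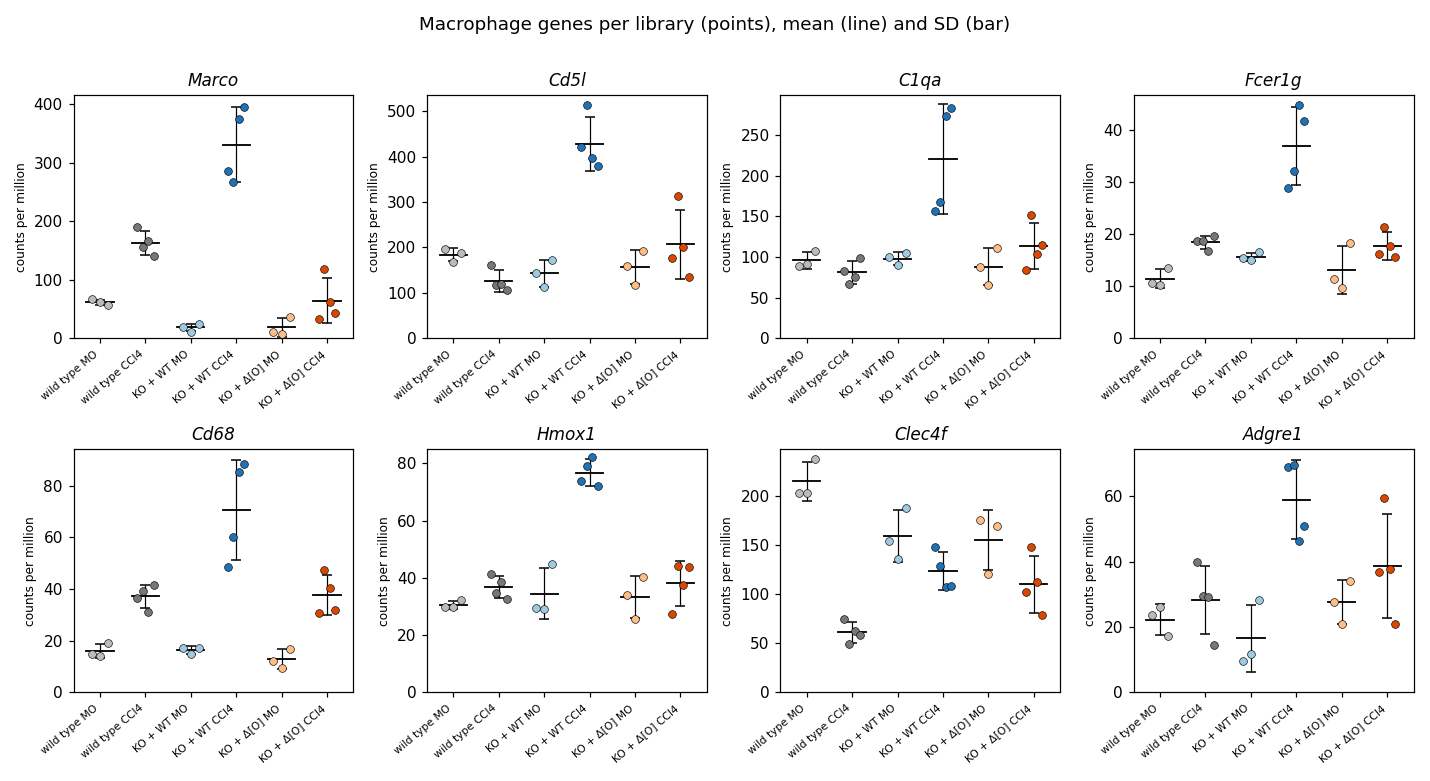
Levels in CPM (vertical axes, linear from 0) of 8 macrophage genes in every library of the 6 liver groups. Lines are means and bars SD, and KO stands for Hmgb1ΔHepΔMye. In Marco, Fcer1g and Hmox1 the 4 WT-construct CCl4 livers lie above all 4 Δ[O]-construct CCl4 livers, whereas in Clec4f and Adgre1 the groups overlap.

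Among the 12 named lower genes with the largest changes were several further leukocyte genes. Nxpe5 stood at 2.19, 2.79, 2.94 and 2.47 CPM in WT-construct and at 0.121, 0.446, 0.211 and 0.276 CPM in Δ[O]-construct livers (log2 -3.26, SE 0.375, edgeR adjusted p = 0.000897). Mefv, which encodes the inflammasome sensor pyrin, stood at 4.89, 5.63, 4.61 and 4.59 against 0.940, 2.13, 1.00 and 0.631 CPM (log2 -2.04, SE 0.293, edgeR adjusted p = 0.00187). Spn, the leukocyte surface sialoglycoprotein CD43, stood at 4.89, 6.14, 6.90 and 7.87 against 1.46, 2.95, 1.45 and 2.05 CPM (log2 -1.70, SE 0.226, edgeR adjusted p = 0.000897). In these 3 genes the groups were far apart, and the calls held in all 8 fits that left out a library.

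Ptger4, a prostaglandin E2 receptor, fell by 1.87 (SE 0.349, edgeR adjusted p = 0.00786), and Fgr, a Src-family kinase of myeloid cells, by 1.69 (SE 0.273, 0.00387). Acod1, the enzyme that makes itaconate in activated macrophages, fell by 2.86 (SE 0.681, edgeR adjusted p = 0.031), with levels of 1.23 to 3.62 against 0 to 0.818 CPM. Slc2a6, a sugar transporter, fell by 1.82 (SE 0.434, edgeR adjusted p = 0.0301). Tmc3 and Krt80, a keratin, fell by 1.79 (SE 0.325, edgeR adjusted p = 0.00756) and 1.60 (SE 0.290, 0.00741). The fall of Ptger4, Fgr, Tmc3 and Krt80 held in all 8 fits that left out a library, that of Acod1 in 1 and that of Slc2a6 in 2.

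Some gene families were picked after the values had been seen, so their counts are a description only. Of 5 genes examined of the phagocyte NADPH oxidase, which makes superoxide, 4 fell: Ncf4 (log2 -1.24, edgeR adjusted p = 0.0113), Ncf1 (-1.02, 0.0113), Rac2 (-0.89, 0.0235) and Cyba (-0.82, 0.0372). The catalytic chain Cybb had a log2 fold change of -0.93 and an adjusted p of 0.0659. Among receptors for antibody, Fcgr3 (-0.94, edgeR adjusted p = 0.00967), Fcgr1 (-0.87, 0.0229) and Fcgr4 (-0.97, 0.0217) fell with Fcer1g, whereas the inhibitory Fcgr2b stood at -0.15 (0.706). C5ar1, a receptor for the complement fragment C5a, stood at 6.11, 8.99, 9.60 and 10.5 against 2.67, 3.87, 3.01 and 2.21 CPM (log2 -1.57, SE 0.285, edgeR adjusted p = 0.00741), and the groups did not overlap. C3ar1, the receptor for C3a, fell by 0.89 (edgeR adjusted p = 0.0449).

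Of 6 receptor chains for myeloid growth factors, 4 fell, Csf3r among them, and all 6 were negative (median -0.93). Csf2rb and Csf2rb2, near-identical chains whose reads may be split between them, fell by 1.14 and 1.29 (edgeR adjusted p = 0.00387 and 0.004). Csf2ra, the GM-CSF binding chain, fell by 0.86 (edgeR adjusted p = 0.0153), while Csf1r, the receptor on which most tissue macrophages depend, had -0.87 and an adjusted p of 0.0652, and the IL-3 receptor chain Il3ra -0.17 and 0.78. Of 26 integrin and integrin-binding genes, 4 fell, all of them leukocyte chains: Itgb2 (-1.26, edgeR adjusted p = 0.00638), Itga4 (-1.23, 0.0076), Itgal (-1.09, 0.0113) and Itgam. Among the Src, Syk and Tec kinases examined 5 of 14 fell, from Fgr at -1.69 (edgeR adjusted p = 0.00387) and Syk at -0.95 (0.026) to Lyn at -0.43 (0.0391). The scavenger receptors had 7 of 17 lower, Marco, Cd5l, Cd163 and Msr1 among them, while the endothelial scavengers Stab1 (-0.37, 0.113) and Stab2 (-0.25, 0.307) did not pass.

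In the Ifi200 family, DNA sensors and regulators whose members are very alike in sequence, 5 of 10 fell and all 10 were negative. Of 14 paired Ig-like receptor genes, inhibitory and activating pairs on myeloid cells with close copies, 10 were tested and 4 fell, among them Pirb at 27.8, 29.0, 27.9 and 34.8 against 8.04, 15.9, 8.77 and 11.7 CPM (log2 -1.43, SE 0.241, edgeR adjusted p = 0.00542). Of 17 transcription factors of myeloid cells examined, 8 fell. Spi1, which encodes PU.1, a factor that myeloid cells need to form, stood at 21.4, 22.8, 26.4 and 23.1 against 10.4, 16.9, 12.1 and 10.4 CPM (log2 -0.91, SE 0.161, edgeR adjusted p = 0.00659). Pou2f2 fell by 1.56 (edgeR adjusted p = 0.00387), Ikzf1 by 1.01 (0.0122) and Spic, a factor of iron-recycling macrophages, by 0.97 (0.019). Nr1h3 (-0.02, 0.959), Id3 (0.03, 0.977) and Cebpb (0.02, 0.988) did not pass. Members of these families with close copies are uncertain, since how reads shared by copies were counted is not given.

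Promoter sequences are shown for 4 lower genes that hold the letters GAGGAAGT, a run of the kind that PU.1 binds. Whether PU.1 had a part in their lower RNA was not tested. The letters were searched on both strands in the 250 bases before each start listed for a gene in RefSeq (GRCm38.p6). A gene counted if any of its promoters held them. The 248 lower genes had 337 promoters and the 11074 tested genes 14076. The letters occurred in 18 of 248 lower genes with a promoter in the table (7.26%). They occurred in 342 of 11074 tested genes (3.09%) and in 755 of 27025 genes of the whole table (2.79%). The shorter run GAGGAA, which the longer one contains, occurred in 38.3%, 26% and 25.9%. Of 11 higher genes with a promoter, 0 held the longer run and 2 the shorter. A match describes letters and is not a binding site. Capitals mark the run, in Cd300ld and Pirb as written and in C1qc and Fcgr4 as its reverse complement. Its leftmost base lies at -143, -120, -195 and -24 from the start listed for that promoter in Cd300ld, Pirb, C1qc and Fcgr4. All 4 sequences run 5′ to 3′ on the gene's strand.
Cd300ld, chr11:114989887-114990136, minus strand: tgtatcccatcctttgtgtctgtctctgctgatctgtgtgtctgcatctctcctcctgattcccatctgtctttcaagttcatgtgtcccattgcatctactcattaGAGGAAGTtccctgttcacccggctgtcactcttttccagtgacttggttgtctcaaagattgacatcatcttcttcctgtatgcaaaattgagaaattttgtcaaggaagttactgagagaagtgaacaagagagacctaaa
Pirb, chr7:3720383-3720632, minus strand: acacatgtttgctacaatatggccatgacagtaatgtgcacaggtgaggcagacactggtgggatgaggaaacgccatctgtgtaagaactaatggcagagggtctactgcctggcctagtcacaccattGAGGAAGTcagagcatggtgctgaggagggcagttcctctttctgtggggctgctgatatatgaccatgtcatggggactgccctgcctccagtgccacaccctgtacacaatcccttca
C1qc, chr4:136892915-136893164, minus strand: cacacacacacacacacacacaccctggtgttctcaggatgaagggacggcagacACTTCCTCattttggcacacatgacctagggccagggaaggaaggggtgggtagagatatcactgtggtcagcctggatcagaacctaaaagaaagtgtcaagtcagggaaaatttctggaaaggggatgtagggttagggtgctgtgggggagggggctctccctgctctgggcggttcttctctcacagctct
Fcgr4, chr1:171018676-171018925, plus strand: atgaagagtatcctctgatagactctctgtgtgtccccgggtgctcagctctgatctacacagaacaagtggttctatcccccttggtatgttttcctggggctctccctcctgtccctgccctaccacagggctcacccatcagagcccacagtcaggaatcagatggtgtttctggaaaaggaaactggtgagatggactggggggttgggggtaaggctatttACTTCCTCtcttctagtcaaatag
Cd300ld, an immunoglobulin-like receptor of myeloid cells, stood at 26, 31.0, 34.1 and 36.7 against 12.3, 19.7, 15.8 and 13.2 CPM (log2 -1.07, SE 0.152, edgeR adjusted p = 0.00187).

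Some chemokines and targets of NF-kB fell. Of 24 cytokines and chemokines, 4 fell, none rose and 23 were negative (median -0.79). Outside that list the chemokine Ccl24 rose, from 0.17 to 0.41 CPM in WT-construct to 0.47 to 1.03 CPM in Δ[O]-construct livers (log2 1.27, SE 0.326, edgeR adjusted p = 0.0435). Ccl6 stood at 49.1, 68.4, 52.6 and 57.6 against 17.3, 31.5, 19.4 and 12.5 CPM (log2 -1.49, SE 0.270, edgeR adjusted p = 0.00762). Cxcl16, a membrane-bound chemokine that also scavenges lipid, stood at 23.7, 24.8, 25.7 and 30.7 against 11.4, 18.5, 10.4 and 11.2 CPM (log2 -1.03, SE 0.181, edgeR adjusted p = 0.00638). In both genes the groups were apart, and both calls held in all 8 fits that left out a library.

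Cxcl13, the B cell chemokine, stood at 6.17, 6.95, 3.52 and 4.28 against 0.121, 1.41, 0.449 and 0.158 CPM (log2 -3.20, SE 0.738, edgeR adjusted p = 0.0286). Ccl3 was lower as well, by a log2 of -1.31 (edgeR adjusted p = 0.0486), and lost its call with the replicate number as a block (0.077). The monocyte chemokine Ccl2 stood at 4.10, 5.37, 5.58 and 4.12 against 1.15, 2.36, 2.59 and 0.749 CPM. Its groups did not overlap, and it passed with the block and not without it (edgeR adjusted p = 0.0892 without it, 0.0288 with it).

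All 13 NF-kB genes were negative (median -0.56) and 3 fell. Icam1, the adhesion molecule that holds leukocytes, stood at 28.4, 35.7, 32.2 and 29.0 against 15.3, 21.5, 15.7 and 17.3 CPM (log2 -0.84, SE 0.179, edgeR adjusted p = 0.0153). The feedback inhibitors Tnfaip3 and Nfkbia fell by 1.06 (edgeR adjusted p = 0.0408) and 0.56 (0.0446), the latter with overlapping groups. Of the 13 receptors and adaptors of HMGB1, Tlr2 (log2 -1.06, edgeR adjusted p = 0.046) and Trem1 (-1.50, 0.0437) fell, and none fell without Δ[O]-construct library 5. Tlr2 stood at 14.2, 20.1, 11.9 and 12.1 against 6.49, 10.9, 5.92 and 4.65 CPM, while Trem1 was below 1 CPM in all 8 livers. Tlr4 had a log2 fold change of -0.64 and an adjusted p of 0.166. Calls of Tlr2 and Tnfaip3 held in 1, of Trem1 in 2 and of Icam1 and Nfkbia in 3 of the 8 fits that left out a library.

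Hmox1, which breaks down haem and is both an NRF2 target and a macrophage gene, stood at 73.7, 79.2, 82.1 and 72.0 CPM in WT-construct and at 27.4, 44.2, 37.4 and 43.7 CPM in Δ[O]-construct livers. The groups were far apart (log2 -1.01, SE 0.160, edgeR adjusted p = 0.00387), and the call held in all 8 fits that left out a library. It was the only called member of 24 NRF2 and antioxidant genes, whose other 23 members had positive log2 fold changes and whose median was 0.31. Hk2, a hexokinase of dividing and immune cells, fell by 0.85 (SE 0.189, edgeR adjusted p = 0.0204), and the B cell lectin Cd22 by 0.89 (0.0464), the latter with an adjusted p of 0.104 under the block.

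**Figure D2:**
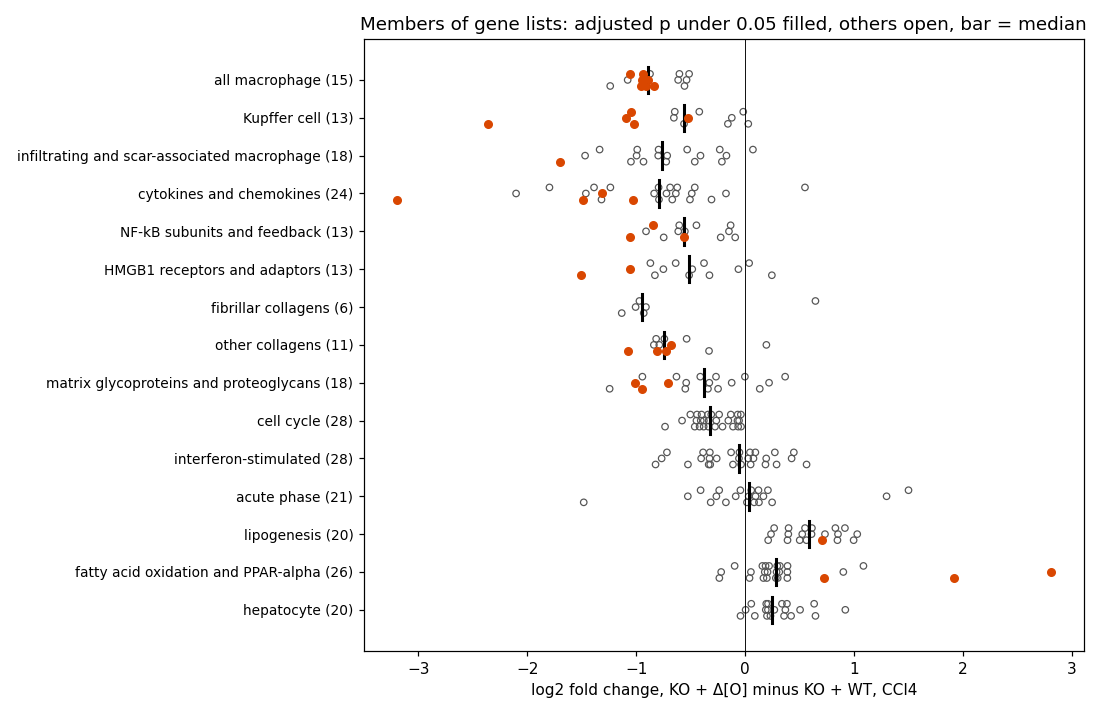
Log2 fold change (horizontal axis) of the tested members of 15 gene lists, Δ[O]-construct minus WT-construct livers under CCl4, with the number of members in brackets. Filled points passed an adjusted p of 0.05, open points did not, and bars are medians. Called members of the macrophage, cytokine and collagen lists lie left of 0, those of the lipogenesis and fatty acid oxidation lists right of it.

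The matrix was lower in part, and its chief collagens did not pass. Col6a3, a chain of the beaded-filament collagen VI (chr1:90766860-90844001 on GRCm38.p6), stood at 99.7, 136, 118 and 156 CPM in WT-construct and at 70.9, 78.3, 56.8 and 35.9 CPM in Δ[O]-construct livers. The groups did not overlap (log2 -1.07, SE 0.219, edgeR adjusted p = 0.0124), and 6 of the 8 fits that left out a library kept the call. The basement membrane chains Col4a2 and Col4a1 fell by 0.81 (edgeR adjusted p = 0.0348) and 0.73 (0.0498, or 0.0567 without the MO libraries with high Xist). Col15a1 fell by 0.68 (edgeR adjusted p = 0.0456, or 0.0617 with the block). These were the 4 that fell among 11 listed non-fibrillar collagens, of which 10 were negative (median -0.74). They were also the only 4 called among all 33 collagen chains tested, of which 27 were negative (median -0.58). None of 11 laminin chains passed (median -0.16). Without Δ[O]-construct library 5, 1 of the 11 fell, and none of the glycoproteins and proteoglycans named next.

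Among 18 glycoproteins and proteoglycans 3 fell. Postn, periostin, stood at 37.9, 44.9, 57.2 and 63.3 against 20.3, 35.1, 27.6 and 17.9 CPM (log2 -1.01, SE 0.211, edgeR adjusted p = 0.0142). Fbn1, the core of microfibrils, stood at 23.9, 27.2, 26.4 and 32.3 against 15.2, 17.7, 14.1 and 9.97 CPM (log2 -0.94, SE 0.219, edgeR adjusted p = 0.0259). In both genes the groups were apart, most clearly in Fbn1. Bgn, the small proteoglycan biglycan, fell by 0.71 (SE 0.177, edgeR adjusted p = 0.0373). Tgfb1, the ligand that drives collagen synthesis in stellate cells, stood at 24.8, 26.8, 36.8 and 31.7 against 14.3, 22.4, 18 and 18.9 CPM (log2 -0.70, SE 0.168, edgeR adjusted p = 0.0301).

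No fibrillar collagen passed. Of the 6 tested, 5 had non-overlapping groups with lower values (median -0.95), a separation shown by 7.07% of all tested genes. These genes were read in the same livers, so the 5 are not separate observations. Col1a1 stood at 408, 387, 596 and 632 against 247, 334, 238 and 104 CPM (log2 -1.13, SE 0.441, edgeR adjusted p = 0.213). Col3a1 stood at 520, 591, 696 and 785 against 333, 495, 338 and 212 CPM (log2 -0.91, SE 0.299, edgeR adjusted p = 0.13). In both genes Δ[O]-construct library 5 was the lowest, and without it the median of the 6 fibrillar collagens was -0.757. Col1a2 had a log2 fold change of -0.93 (edgeR adjusted p = 0.291), the collagenase inhibitor Timp1 -1.39 (0.347) and the crosslinking enzyme Lox -0.88 (0.264). The contractile actin Acta2 stood at 13.9 to 60.5 against 22.5 to 33.9 CPM, with overlapping groups (log2 -0.51, SE 0.458, edgeR adjusted p = 0.666). Pdgfrb, a receptor of stellate cells, had -0.57 (edgeR adjusted p = 0.0941). The myofibroblast list as a whole, 18 genes that include several of those named, had no call and summed to 1230 to 1873 CPM in WT-construct and 562 to 1126 CPM in Δ[O]-construct livers.

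**Figure D3:**
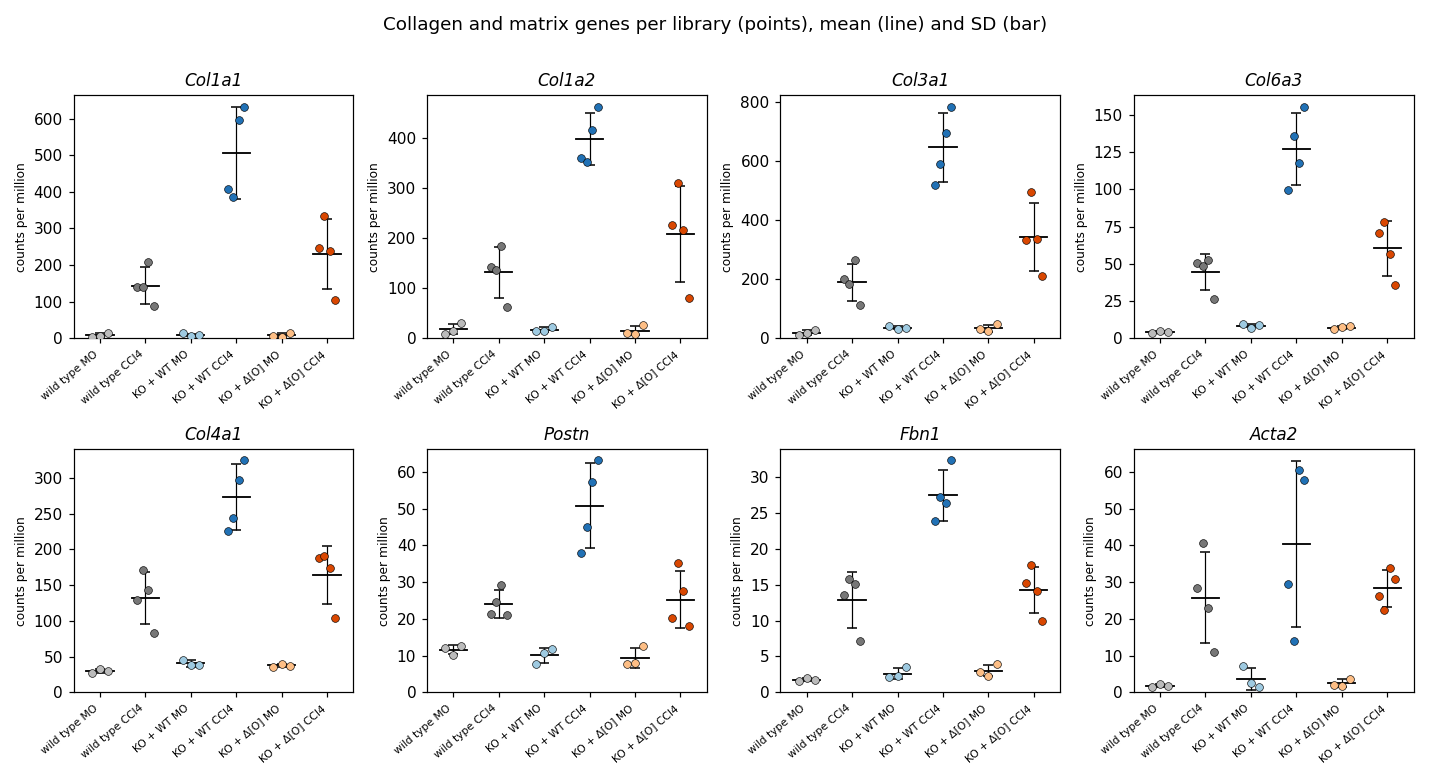
Levels in CPM (vertical axes, linear from 0) of 8 collagen, matrix and contractile genes in every library of the 6 liver groups. Lines are means, bars SD, and KO stands for Hmgb1ΔHepΔMye. All collagen panels show the WT-construct CCl4 livers above the Δ[O]-construct CCl4 livers, but only Col6a3, Col4a1, Postn and Fbn1 of the 8 genes passed the test.

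Among the 16 genes higher with Δ[O] HMGB1 were several enzymes, while the 20 hepatocyte marker genes had no call (median 0.25). Kyat3, a transaminase of kynurenine and glutamine, stood at 84.2, 75.4, 65.3 and 56.9 CPM in WT-construct and at 117, 102, 130 and 154 CPM in Δ[O]-construct livers. The groups did not overlap (log2 0.84, SE 0.147, edgeR adjusted p = 0.00638), and it was the only higher named gene to keep its call in all 8 fits that left out a library. Ehhadh, the bifunctional enzyme of peroxisomal fatty acid oxidation, stood at 345, 273, 213 and 211 against 508, 363, 426 and 421 CPM (log2 0.72, SE 0.165, edgeR adjusted p = 0.0235). Elovl5, an elongase of polyunsaturated fatty acids, stood at 380, 314, 255 and 271 against 650, 454, 396 and 482 CPM (log2 0.70, SE 0.179, edgeR adjusted p = 0.0424). In both genes the lowest Δ[O]-construct library was just above the highest WT-construct library.

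Cyp4a14 and Cyp4a10, fatty acid hydroxylases that PPAR-alpha induces, had the largest increases but uneven ones. Cyp4a14 stood at 7.17, 11.4, 5.37 and 5.97 against 17.4, 11.3, 80.7 and 100 CPM (log2 2.80, SE 0.671, edgeR adjusted p = 0.0373), and Δ[O]-construct library 2 lay within the WT-construct range. Cyp4a10 stood at 30.8, 34.5, 25.7 and 23.2 against 50.7, 58.1, 74.1 and 249 CPM (log2 1.92, SE 0.461, edgeR adjusted p = 0.0348, or 0.0603 with the block). Both calls held in 2 of the 8 fits that left out a library, and Cyp4a genes are close copies of one another. G6pc, the last enzyme of glucose release, stood at 42.5, 141, 79.7 and 61.5 against 243, 439, 130 and 382 CPM, with overlapping groups (log2 1.88, SE 0.466, edgeR adjusted p = 0.0405, or 0.0899 with the block).

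Acaa1b, a peroxisomal thiolase, stood at 400, 308, 299 and 286 against 731, 564, 583 and 722 CPM (log2 1.01, SE 0.257, edgeR adjusted p = 0.0421, or 0.0579 with the block). Its groups were well apart. The other named higher genes were Pdzk1ip1 (log2 1.12, edgeR adjusted p = 0.05), the mitochondrial pyruvate carrier subunit Mpc1 (0.50, 0.0441), Ears2 (0.60, 0.0405), Alkbh7 (0.48, 0.0392) and the lipid antigen presenter Cd1d1 (0.45, 0.0464). The last 3 lost their calls with the block, at adjusted p of 0.0608, 0.0687 and 0.0809. Outside the naming rule the higher genes were the chemokine gene Ccl24, Acsf3, Pex6 and Atp5f1, named here after their values were seen. Of 26 genes of fatty acid oxidation and PPAR-alpha, 3 rose and none fell (median 0.28), and 1 rose without Δ[O]-construct library 5. All 20 lipogenesis genes and all 24 cholesterol synthesis genes had positive log2 fold changes, with medians of 0.59 and 0.35, but 1 and 0 passed. Scaling by total counts moved the median of all genes to -0.089 and made 1 cholesterol gene negative. With that scaling 4 genes were called higher, and without a filter on low counts 6, against 16 in the main fit.

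**Figure D4:**
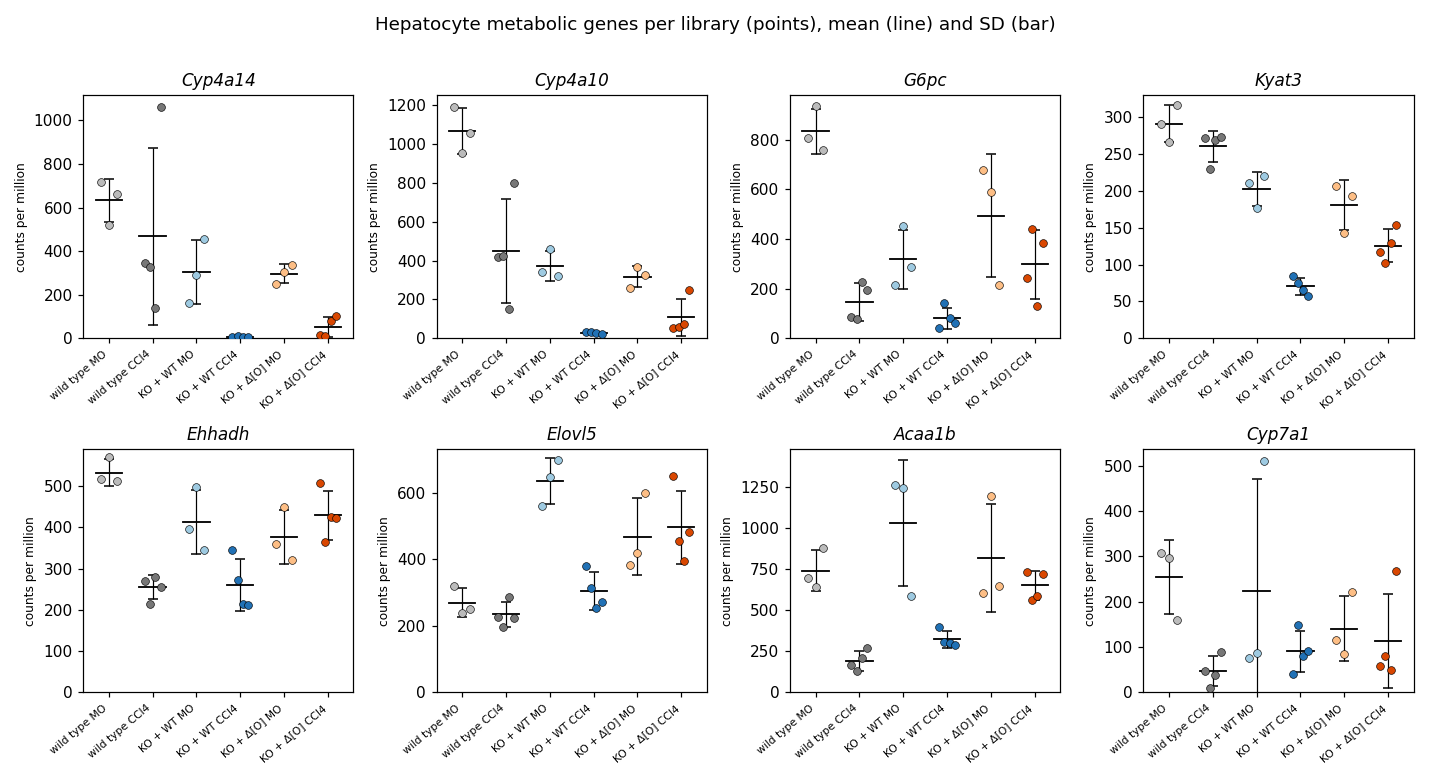
Levels in CPM (vertical axes, linear from 0) of 8 hepatocyte enzymes in every library of the 6 liver groups. Lines are means and bars SD, cut off at 0, and KO stands for Hmgb1ΔHepΔMye. Kyat3 and Acaa1b separate the constructs under CCl4, Cyp4a14 and Cyp4a10 are spread widely in the Δ[O]-construct livers, and Cyp7a1 is shown as a gene that did not pass.

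Other programmes of the injured liver had no call between the constructs. All 28 cell cycle genes were negative (median -0.32) and none passed. Without Δ[O]-construct library 5 their median was -0.017, next to -0.022 over all genes, and Mki67, a marker of dividing cells, stood at 48.0 CPM in that library against 73.7 to 150 CPM in the other 3 and 94.7 to 191 CPM with the WT construct. The lists of interferon-stimulated genes (median -0.06), acute phase proteins (0.03, or -0.11 with total counts), the unfolded protein response (0.12) and p53 targets (-0.14) had 0 calls, as had those of bile acids (0.33), pericentral (0.25) and periportal (0.29) hepatocytes and the clock (-0.05). Saa1, an acute phase protein, stood at 317, 139, 223 and 287 against 528, 219, 426 and 1200 CPM (log2 1.30, SE 0.554, edgeR adjusted p = 0.269). Lcn2, the iron-binding lipocalin, stood at 262, 308, 682 and 485 against 139, 174, 154 and 154 CPM, with non-overlapping groups (log2 -1.48, SE 0.548, edgeR adjusted p = 0.191), and passed without the MO libraries with high Xist (0.0199). Cyp2e1, the enzyme that activates CCl4, stood at 197, 479, 256 and 345 against 355, 561, 315 and 1180 CPM and did not pass (log2 0.92, SE 0.507, edgeR adjusted p = 0.418). Albumin RNA, Alb, differed by 0.19 (SE 0.160, edgeR adjusted p = 0.632).

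The direction of each gene under CCl4 was taken from wild-type livers, which share no library with the comparison. In these, 22.8% of all tested genes rose and 23.5% fell with CCl4. Wild-type CCl4 library 4 stood apart from its group on the first axis of the distance plot (0.207, against 0.918 to 0.983). The model that weights samples gave it a weight of 0.314. Leaving it out gave 3572 higher and 3135 lower genes, against 3219 and 3323 with it. Of the 310 genes lower with Δ[O] HMGB1, 159 (51.3%) rose with CCl4 in wild-type livers and 12 (3.87%) fell. Of the 16 higher genes, 11 (68.8%) fell and 1 rose. The 159 included Marco (log2 1.41, edgeR adjusted p = 0.0162), Col6a3 (3.36, 6.06e-08) and Cd68 (1.21, 0.000176), while Timd4 (-1.27, 0.000425) and Cd163 (-1.86, 1.28e-06) were among the 12. Nxpe5 was also among the 159. It was at 0 CPM in all wild-type MO and 0.0747 to 0.377 CPM in wild-type CCl4 libraries, so its rise rests on few reads. Genes without a wild-type response were also present among the lower genes, with Hmox1 at 0.27 (0.217), Mefv at -0.35 (0.403) and C1qa at -0.24 (0.395). Scaling by total counts in place of TMM factors moved the median of all genes in the wild-type response by 0.453, and then 48.6% of all genes and 75.5% of the 310 rose, while 8.46% and 0.968% fell.

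**Figure D5:**
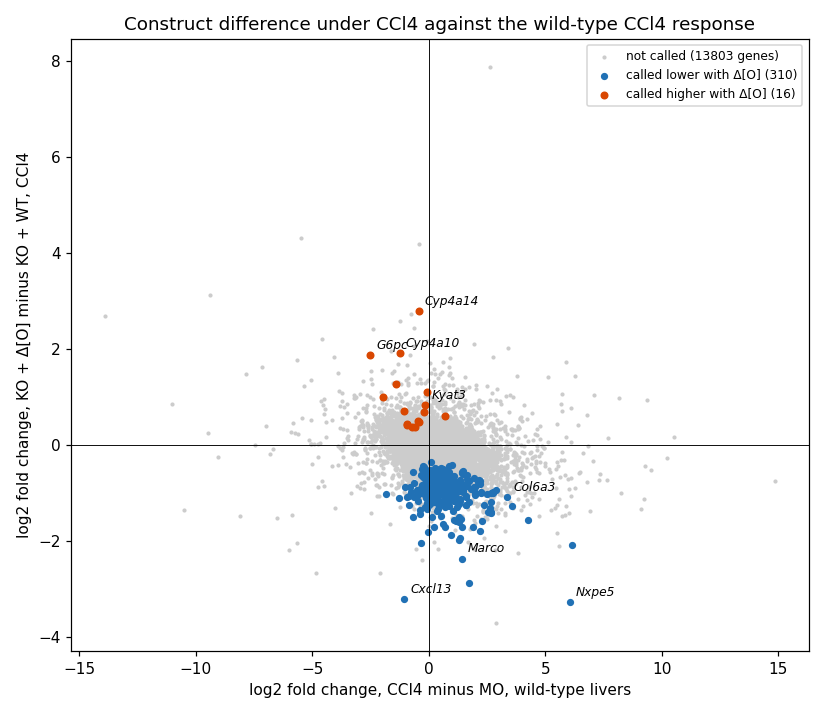
Log2 fold change with CCl4 in wild-type livers (horizontal axis) against log2 fold change of Δ[O]-construct minus WT-construct livers under CCl4 (vertical axis), 1 point per tested gene. The 310 lower genes lie mostly right of 0 and the 16 higher genes mostly left of 0.

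Without CCl4 the constructs were compared in MO livers. With all 6 MO libraries no gene passed (0%, with 1549 genes or 11% at an unadjusted p under 0.05 in edgeR, and 21 by DESeq2). The test of whether the construct difference itself differed between CCl4 and MO also had no call (0%, with 2098 genes or 14.8% at an unadjusted p under 0.05, and 85 by DESeq2). Both counts turned on a library with high Xist, MO library 3 of the WT construct. Without it they were 823 and 1119. Without both libraries with high Xist, which leaves 2 MO libraries a construct, they were 804 of 14257 genes (5.64%) and 768 (5.39%). In the MO livers 4.31% were then higher and 1.33% lower with Δ[O] HMGB1. Leaving out MO library 3 of the Δ[O] construct alone gave 11 and 0, and leaving out Δ[O]-construct CCl4 library 2 gave 25 calls in the test between CCl4 and MO. The counts thus followed MO library 3 of the WT construct, to which the model that weights samples gave a weight of 0.219. A part of sex-linked RNA in the result was not tested.

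The genes lower under CCl4 had a median near that of all genes in the MO livers, but went both ways. With all libraries their median log2 fold change between constructs in MO was -0.04, against -0.037 for all genes, with 172 of 310 negative and 138 positive. Without the libraries with high Xist it was -0.10 against -0.06, and none of the 310 was called in MO. Single genes lay well below 0 in that fit without passing, among them Csf3r (log2 -0.78, edgeR adjusted p = 0.092), Cd68 (-0.58, 0.206) and Fcer1g (-0.53, 0.126). Nxpe5 stood at 0.0771, 0.167 and 0.0769 CPM in MO livers with the WT construct and was at 0 in all 3 with Δ[O] HMGB1. In the test between CCl4 and MO without those libraries, 59 of the 310 lower genes (19%) and 6 of the 16 higher genes (37.5%) passed in the direction of their main call, against 3.43% and 1.96% of all genes called lower and higher. Those that passed included Hmox1 (difference of log2 fold changes -1.03, SE 0.227, edgeR adjusted p = 0.0194), Cd163 (-1.46, SE 0.334, 0.0215), Laptm5 (-1.17, SE 0.261, 0.0206), Fgr (-1.24, SE 0.309, 0.0307), Timd4, Ccl6, Cxcl13 and Col15a1. Among the higher genes they were led by Alkbh7 (1.07, edgeR adjusted p = 0.0131), Elovl5 (1.29, 0.0201) and Pdzk1ip1. Marco was not among them. Since this test uses the CCl4 libraries that chose these genes, the share is a description.

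In MO livers Hmgb1 RNA separated the constructs. It stood at 69.7, 63.9 and 74.7 CPM with the WT construct and at 215, 172 and 131 CPM with Δ[O] HMGB1, and the groups did not overlap (log2 1.31, SE 0.227, edgeR adjusted p = 0.165). It passed without the libraries with high Xist (SE 0.271, edgeR adjusted p = 0.00597), and so did its difference from the CCl4 livers (-1.19, SE 0.327, 0.0425).

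Set beside wild-type livers under CCl4, the called lower genes named by the rule had their highest mean in the WT-construct livers. The exception was Nfkbia, at 48.6 CPM in wild-type, 42.6 CPM in WT-construct and 28.9 CPM in Δ[O]-construct livers. Genes called lower were chosen on these same WT-construct libraries, which favours a high mean there, so the pattern is a description only. Hmox1 averaged 36.9 ± 3.84 CPM (SD, n = 4) in wild-type, 76.7 ± 4.69 (SD, n = 4) in WT-construct and 38.2 ± 7.85 (SD, n = 4) in Δ[O]-construct livers. Fcer1g averaged 18.4, 36.9 and 17.7 CPM, Cd68 37.1, 70.6 and 37.6 CPM, and Nxpe5 0.257, 2.60 and 0.264 CPM in that order. Marco was lowest with Δ[O] HMGB1, at 163, 331 and 64.4 CPM. Col1a1 averaged 144, 506 and 230 CPM, and Kyat3 261, 70.5 and 126 CPM, so that for both genes the Δ[O]-construct livers lay between the other groups. Against wild-type livers under CCl4, 4069 genes (28.8%) were called in WT-construct and 2992 (21.2%) in Δ[O]-construct livers. Of the 15 general macrophage genes, 13 were called higher and 2 lower in WT-construct than in wild-type livers (median log2 fold change 1.12). In Δ[O]-construct livers 3 were called higher and 2 lower (median 0.33). These comparisons share libraries with each other and with the main comparison. The wild-type mice, whose titles name no construct, also differed from the others in genotype.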

How the data were processed

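RNA of 21 whole-liver samples was sequenced after TruSeq Stranded mRNA library preparation, per the labels' protocols. The authors deposited whole-number read counts per gene, and the unit was settled from the values. The submitters' processing notes name mm10. Aligner, counter, gene annotation and strandedness of counting were not given in the sources used here, so overlapping and antisense genes and close gene copies are uncertain. Rows for reads without a gene (5.5% to 8.51% of gene counts) or with several genes (0.579% to 1.66%) were left out.

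Low genes were dropped with filterByExpr (min.count 10, min.total.count 15). Counts were scaled by TMM factors, and 1 robust quasi-likelihood model with all 6 groups was fitted in edgeR 4.0.16 (R 4.3.3). Calls needed a Benjamini-Hochberg adjusted p below 0.05 over all genes tested. DESeq2 1.42.0 and limma 3.58.1 (voom with sample weights) served as alternatives, beside other scalings, filters, a replicate block and leaving out each library. Counts of the main comparison were also simulated (14129 genes, 50 changed genes for each size and direction). The fit recovered 62% and 80% of genes changed by -1 and 1 on the log2 scale. It recovered 90% and 98% of those changed by -2 and 2. Changed genes were drawn above a minimum expected count, all groups otherwise shared the same means, and no library was made to stand apart. The rates hold for that setting only.

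Samples were grouped by title, genotype and treatment labels. Named genes were the Hmgb1 family, up to 12 called genes in each direction with the largest fold change and a group mean of at least 1 CPM, up to 5 called members of each of 52 lists, and fixed anchor genes. Pseudogenes, provisional names and 26 date-like symbols were not named for their fold change. The members and lists were chosen with earlier results of these data known. Gene families were picked after their values were seen.

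The replicate numbers come from the sample titles, which do not say what a number stands for. Same-numbered libraries deviated together in the main comparison (correlations 0.261, 0.108 and 0.204 for numbers 1, 3 and 5) and in the MO livers (0.323, 0.289 and 0.454), so the block was taken as a pairing by a rule of at least 3 pairs above 0.1. Differently numbered pairs ranged from -0.273 to 0.28 and from -0.385 to 0.175, so under CCl4 some of them were as high. The value of 0.454 joins the MO libraries with high Xist. Between wild-type CCl4 and MO livers, same-numbered libraries had correlations of -0.003, 0.082 and 0.036. The block nevertheless gave each number the same effect in all groups. Every library pair within a group differed by more than counting noise (chi-square of at least 11 per degree of freedom). Positions and promoters come from RefSeq on GRCm38.p6, which held 99.7% of the tested symbols. A promoter was found for 11074 tested genes. Some genes are not reported here and were left out of the family counts.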

Additional observations from a re-analysis of the deposited data

Results flagged for a closer look

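In 7 gene and group pairs of the main comparison, 1 of the 4 libraries lay far from the other 3, by a gap above Dixon's critical share of the group's whole range. Such gaps were looked for in 162 groups, and chance flags about 1 in 20 groups. In Δ[O]-construct livers under CCl4, library 5 was far above the rest for Cyp4a10 (249 CPM, next 74.1 CPM) and for the bile acid enzyme Cyp7a1 (268 CPM, next 79.3 CPM). Library 2 of the same group was above the rest for Cxcl16 (18.5 CPM, next 11.4 CPM) and Cd22 (4.71 CPM, next 3.06 CPM). In WT-construct livers, library 3 was above the rest for Slc2a6 (1.72 CPM, next 1.09 CPM) and Cd163 (41.2 CPM, next 32.8 CPM), and library 1 was below the rest for Ptger4 (3.28 CPM, next 4.20 CPM).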

How the results depend on the processing

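The main count of 326 genes became 108 when only the groups compared were fitted, 579 with DESeq2 (105 higher, 474 lower), 1237 with limma-voom and sample weights (388 higher, 849 lower), and 61 to 492 when 1 library was left out. Without Δ[O]-construct library 5 and with only the groups compared, an alternative chosen after seeing the data, it was 206. The other scalings and filters gave 262 to 321. The higher genes among these went from 16 to 4 with total counts only and to 6 without a filter on low counts. They stayed at 15 to 17 in the rest. Leaving out the MO libraries with high Xist, also chosen later, gave 456, of which 324 were shared with the main count. With the replicate block, taken as a pairing, the count was 438, of which 276 were shared with the main count. The block moved 11 calls of named genes, given beside them, and changed no other call of a named gene. In MO livers the count of 0 became 1 with total counts only, 4 with the block, 21 with DESeq2, 0 to 823 without 1 library and 804 without the libraries with high Xist. The difference between CCl4 and MO went from 0 to 3 with the block, 85 with DESeq2, 0 to 1119 without 1 library and 768 without the libraries with high Xist. Calls of Δ[O]-construct against wild-type livers under CCl4 fell from 2992 to 1958 with only the groups compared. Total counts moved the wild-type response to CCl4 from 3219 higher and 3323 lower genes to 6862 and 1195, and the WT-construct against wild-type split under CCl4 from 2230 and 1839 to 2671 and 1149. No named gene that was called in either fit changed direction, while Hmgb3, which was not called, went from -0.04 to 0.00875 with the block. Of 55 named called genes, 13 kept their call under every alternative tried: Kyat3, Nxpe5, Marco, Mefv, Tmc3, Spn, Fgr, Krt80, Cxcl16, Ccl6, Hmox1, Fcer1g and Ctss. With 4 libraries a group, differences of genes near 1 CPM or below, such as Trem1, rest on few reads.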

Other observations

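In MO livers without the libraries with high Xist, 615 genes were higher and 189 lower with Δ[O] HMGB1, from 2 libraries a construct. The higher genes of smallest p, chosen after their values were seen, included Plcxd2 (log2 1.84), Usp6nl (1.44), Sesn3 (1.77) and Cnot1 (1.30), a scaffold of the deadenylase complex. Of 13 neutrophil genes tested, S100a8, S100a9 and Camp were lower in that fit (list median -0.92), and of 9 B and plasma cell genes, Mzb1, Jchain and Cd79a (list median -1.29). Of 20 immediate early genes, Fos, Egr1 and Junb were lower (list median -0.80), and of 13 Kupffer cell genes only Id3 (list median 0.032). In the keratin Krt19, a marker of both bile ducts and mesothelium, MO livers with Δ[O] HMGB1 were lower by 2.96 on the log2 scale in that fit (edgeR adjusted p = 0.0273). The list medians were -2.615 over 9 mesothelium genes, of which only Krt19 passed, and -0.64 over 18 bile duct genes. For Krt19 under CCl4 the groups overlapped (log2 0.27, edgeR adjusted p = 0.863 with all libraries).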
